A study of Mus musculus with 6 samples.

Results

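Cardiolipin is the phospholipid that marks the inner mitochondrial membrane, and 9 genes of its synthesis, remodelling and membrane scaffold were followed in brown adipose tissue (BAT) of wild-type (WT) and Letmd1 knockout (KO) mice. The genes were chosen by role, with earlier results of these data known. Pgs1, Ptpmt1 and Crls1 make cardiolipin, and Taz and Lclat1 exchange its acyl chains. Prelid1 brings its precursor, and Stoml2, Phb and Phb2 form the scaffold that binds it. All 9 were found among the 23282 rows of the count files, and all 9 passed the filter on low counts that left 12995 genes to test. The tissue came from 3 WT and 3 Letmd1 KO male mice of the C57BL/6N strain at 5 weeks of age. The KO mice were homozygous for a knockout-first allele from 1 ES cell clone, in which a lacZ and neomycin resistance cassette in an intron disrupts Letmd1 in the whole body, so BAT cells other than brown adipocytes lacked the gene as well. Polyadenylated RNA of the BAT was read at its 3′ ends with QuantSeq libraries. Letmd1 encodes a protein of the mitochondrial matrix, and the comparison asks how the BAT transcriptome differs without it.

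Cardiolipin is built inside the mitochondrion. Phosphatidic acid is carried to the inner membrane, activated to CDP-diacylglycerol, and turned by PGS1 into phosphatidylglycerol phosphate, from which the phosphatase PTPMT1 makes phosphatidylglycerol. The synthase CRLS1 then joins phosphatidylglycerol to a second CDP-diacylglycerol, and the new cardiolipin loses and regains acyl chains until it has its mature composition. Mature cardiolipin holds respiratory complexes, carriers and cristae in place, and brown adipocytes, whose mitochondria are packed with cristae, depend on it to burn fuel as heat.

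The libraries held between 6669577 and 14574273 counts per mouse, and levels are given as CPM, read counts with the libraries brought to a common size by TMM (trimmed mean of M values). Letmd1 had 5658, 6490 and 5266 counts in the WT mice and 0, 0 and 1 in the KO mice, so the labels of all 6 mice matched it. Markers of brown adipocytes were present in every mouse, and 7 of 9 were lower in KO BAT. Their summed level was 39819 to 45195 CPM in WT and 12355 to 16039 CPM in KO mice. Fabp4 made up most of that sum in every mouse, with means of 28020 CPM in WT and 10462 CPM in KO mice. Single markers differed widely, from 4.37% of the WT level (Elovl3) and 6.04% (Ucp1) to 88.5% (Pparg). Of 6 nuclear-encoded markers of mitochondrial content, 4 were lower and none higher, and their sum ran from 3814 to 3991 CPM in WT and from 2305 to 2946 CPM in KO mice. All 10 macrophage markers and all 6 fibroblast and matrix markers were higher in KO BAT, with sums of 168 to 237 against 1319 to 2226 CPM and of 2143 to 2843 against 5852 to 10160 CPM. Of 6 endothelial markers, 3 were lower and 1 higher, with sums of 509 to 596 CPM in WT and 331 to 432 CPM in KO mice. The 10 skeletal muscle markers summed to 4.64, 297 and 4.69 CPM in the WT mice and to 308, 221 and 882 CPM in the KO mice, so that WT replicate 2 stood apart from its group, and 2 of the 10 were higher. Ckm, Myh2, Myh4, Tnnt3 and Pvalb, which define skeletal muscle, were at 0 counts in WT replicates 1 and 3. The muscle sums overlapped between the genotypes, and the calls of the cardiolipin genes without WT replicate 2 and KO replicate 3 are given with Stoml2. The sums of the other lists did not overlap between the genotypes, and their part in the results on the cardiolipin genes was not tested.

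In KO BAT, 6 of the 9 cardiolipin genes fell and none rose in the quasi-likelihood fit of edgeR, with a Benjamini-Hochberg adjusted p under 0.05 as the call. Of all genes tested, 22.3% were lower and 23.7% higher by the same call. Crls1 fell most, to 32.5% of its WT level, followed by Phb, Taz, Phb2, Ptpmt1 and Stoml2, which kept between 53.4% and 68.1% of theirs. The levels of Pgs1, Lclat1 and Prelid1 were 120%, 126% and 106% of WT and did not pass the test. The median log2 fold change of the 9 genes was -0.72, against 0.033 over all genes tested. Summed over the 9 genes, the level was 1158 to 1247 CPM in WT mice and 653 to 717 CPM in KO mice. The CPM of the genotypes did not overlap for 7 of the 9 genes, a property of 57.3% of all genes tested. In tissue of this kind, fewer brown adipocytes and less RNA per brown adipocyte cannot be told apart.

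**Figure D1:**
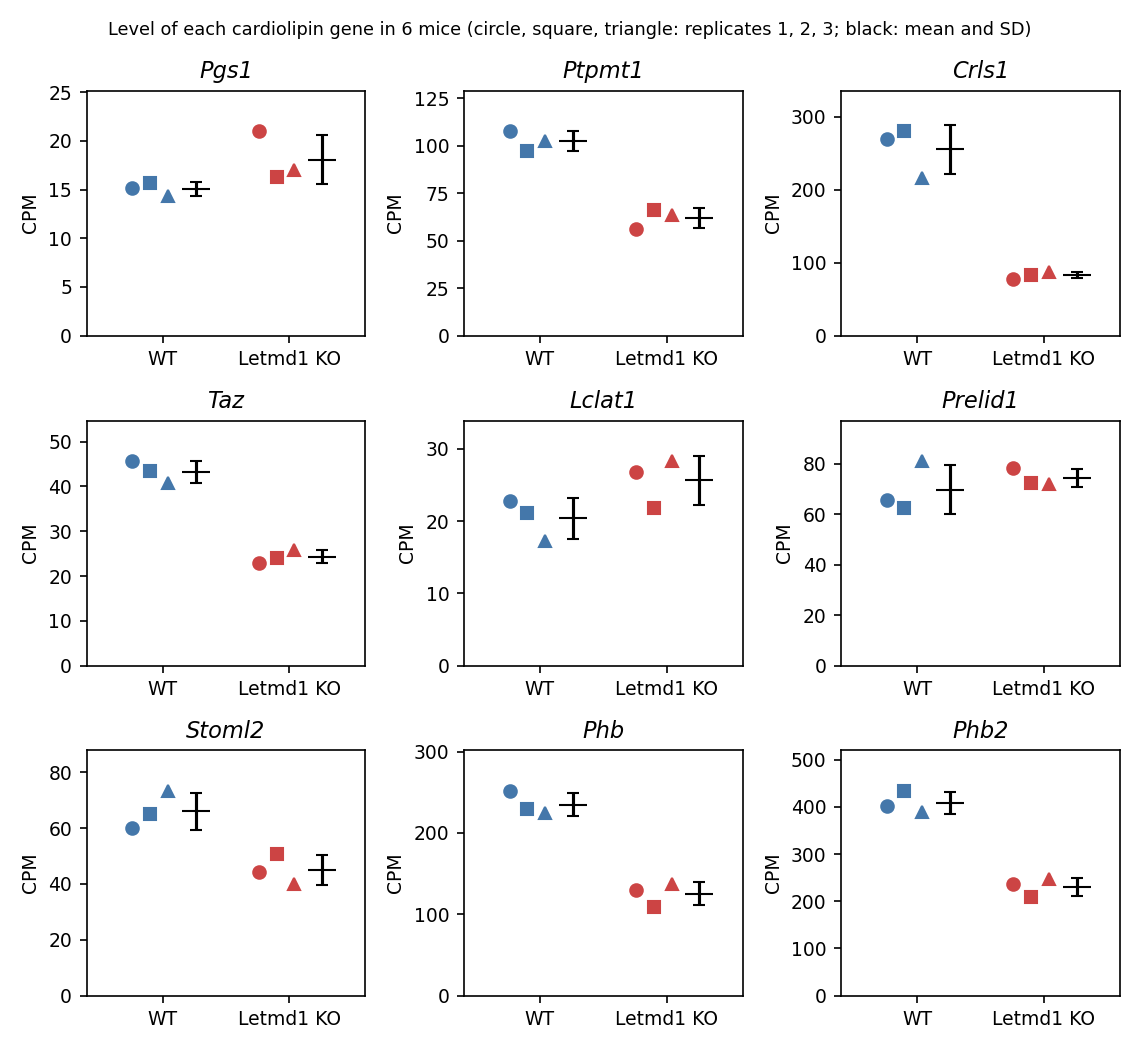
Level of each of the 9 cardiolipin genes in BAT of each mouse, in CPM on a linear axis from 0, with a point for each of 3 WT and 3 Letmd1 KO mice and the mean with its SD in black. The KO points lie below all WT points for Crls1, Ptpmt1, Taz, Stoml2, Phb and Phb2, and the groups overlap for Lclat1 and Prelid1.

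Of the 3 enzymes of synthesis, Ptpmt1 and Crls1 fell and Pgs1 did not pass the test. Pgs1 encodes the enzyme of the committed step, and its level was 15.2, 15.7 and 14.3 CPM in the WT mice and 21.0, 16.3 and 17.0 CPM in the KO mice. Each KO mouse was above every WT mouse, with the lowest KO value close to the highest WT value. The log2 fold change was 0.26 (standard error 0.16), its 95% interval ran from -0.10 to 0.62, and the adjusted p of 0.217 missed the threshold. Pgs1 was the gene of the lowest level among the 9, resting on 110 to 289 counts per mouse.

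Ptpmt1 encodes the phosphatase that completes phosphatidylglycerol. It stood at 107, 97.0 and 103 CPM in the WT mice and at 56.3, 66.3 and 63.5 CPM in the KO mice, with no overlap between the genotypes. The group means were 102 ± 5.24 and 62.0 ± 5.18 CPM (SD, n = 3 each), so the gap was several times the spread within either group. It fell by 0.72 on the log2 scale (standard error 0.11, 95% interval -0.97 to -0.48, adjusted p = 0.000632). Kbtbd4, on the opposite strand, covers the 3′ end of Ptpmt1 and had 46 to 145 counts per mouse, against 501 to 1080 for Ptpmt1. Reads in the stretch that both genes share cannot be assigned without strand.

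Crls1, the cardiolipin synthase of the last step, was at 269, 280 and 216 CPM in the WT mice and at 78.2, 83.2 and 87.2 CPM in the KO mice. The KO mice lay close together and far below the lowest WT mouse, with means of 255 ± 34.0 and 82.9 ± 4.50 CPM (SD, n = 3 each). The log2 fold change was -1.62 (standard error 0.12, 95% interval -1.90 to -1.34, adjusted p = 1.75e-05). Its interval did not meet that of any other of the 9 genes, and 3.18% of all genes tested had a lower log2 fold change than Crls1. In WT BAT, Crls1 and Phb followed Phb2 by level and their ranges overlapped. In KO BAT, Crls1 lay below Phb in every mouse and its range overlapped that of Prelid1.

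Taz and Lclat1 both act on monolysocardiolipin, the form that lacks an acyl chain. Taz encodes tafazzin, the transacylase that restores the mature acyl chains and whose loss causes Barth syndrome. Its level was 45.6, 43.4 and 40.7 CPM in the WT mice and 23.0, 24.1 and 25.9 CPM in the KO mice. The spread within each genotype was narrow and the genotypes did not overlap, with means of 43.2 ± 2.46 and 24.3 ± 1.47 CPM (SD, n = 3 each). Taz fell by 0.83 on the log2 scale (standard error 0.12, 95% interval -1.11 to -0.55, adjusted p = 0.000617).

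Lclat1 encodes a lysocardiolipin acyltransferase of the endoplasmic reticulum that takes acyl chains from acyl-CoA. Its level was 22.7, 21.2 and 17.2 CPM in the WT mice and 26.8, 21.8 and 28.3 CPM in the KO mice. KO replicate 2 lay between the WT values, so the genotypes overlapped. The log2 fold change was 0.33 (standard error 0.16), with an interval from -0.034 to 0.70 and an adjusted p of 0.125. The interval of Lclat1 did not meet that of Taz.

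Prelid1 encodes the protein that, with its partner TRIAP1, shuttles phosphatidic acid across the intermembrane space. It was at 65.7, 62.7 and 81.0 CPM in the WT mice and at 78.4, 72.3 and 72.2 CPM in the KO mice. The highest value of all was that of WT replicate 3, and the KO values lay inside the WT range. The log2 fold change was 0.091 (standard error 0.12, 95% interval -0.19 to 0.37, adjusted p = 0.581). The 3′ end of Prelid1 overlaps that of Mxd3 on the opposite strand over 105 bases, and Mxd3 had between 71.4% and 75.8% of the counts of Prelid1 in every mouse. Whether strand was used in counting is not given in the sources used here, and the reads of both genes cannot be told apart.

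Phb and Phb2 encode the prohibitins, which alternate in ring assemblies of the inner membrane that organise cardiolipin. Phb was at 251, 229 and 224 CPM in the WT mice and at 130.1, 109 and 137 CPM in the KO mice. Phb2, the gene of the highest level among the 9 in every mouse, was at 402, 433 and 389 CPM in the WT mice and at 237, 209 and 247 CPM in the KO mice. In both genes KO replicate 2 was the lowest mouse and KO replicate 3 the highest of the KO mice, and no KO mouse reached a WT value. The log2 fold changes were -0.90 for Phb (standard error 0.12, adjusted p = 0.000273) and -0.82 for Phb2 (standard error 0.11, adjusted p = 0.000331). The last 500 bases of Phb transcripts match 7 annotated pseudogenes, so reads of Phb and of those copies may have been counted together. The copy that was counted as its own gene had 3 counts in total, and the others were not counted. An antisense gene that was not counted covers the 3′ end of Phb2, and reads in the shared stretch cannot be assigned without strand. The intervals of Phb and Phb2, -1.17 to -0.64 and -1.07 to -0.57, overlapped over most of their length.

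Stoml2 encodes a stomatin-like protein that binds cardiolipin and prohibitins and gathers them into membrane domains. Its level was 60.0, 64.9 and 73.1 CPM in the WT mice and 44.4, 50.7 and 39.9 CPM in the KO mice. The genotypes did not overlap, but the fall was the smallest of the 6 that passed the test, at -0.56 on the log2 scale (standard error 0.13, 95% interval -0.86 to -0.26, adjusted p = 0.00774). Without WT replicate 2 and KO replicate 3, the mouse of each genotype with the highest sum of muscle markers, Stoml2 was at -0.50 with an adjusted p of 0.0768. In that fit 5 of the 9 genes were lower, beside 1912 of all 12898 genes tested. The other 5 calls held without these 2 mice. The mice left had muscle marker sums of 4.64 and 4.69 CPM in WT and of 308 and 221 CPM in KO. Muscle transcripts and genotype were thus split alike in that fit, which cannot tell them apart.

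In the GENCODE annotation of GRCm38, Crls1 and Ptpmt1 lie on chromosome 2, Pgs1 and Phb on chromosome 11, and Taz on the X chromosome. Crls1 runs on the plus strand from 132846666 to 132866785 of chromosome 2, and Phb on the plus strand from 95666957 to 95680773 of chromosome 11. Lclat1 runs on the plus strand from 73107985 to 73243368 of chromosome 17. With TMM, Crls1 and Phb fell most and Lclat1 did not pass the test. The 250 bases before the transcript start of each of these genes are shown. They are the windows of the 9 that hold no exon of a protein-coding gene, although that of Crls1 overlaps an exon of the non-coding gene Gm14104. The sequences are from RefSeq on GRCm38.p6, on the plus strand, from chr2:132846416-132846665 for Crls1, chr11:95666707-95666956 for Phb and chr17:73107735-73107984 for Lclat1. Capitals mark matches to any of the motifs searched, which here are E-boxes of the letters CACGTG.
Crls1: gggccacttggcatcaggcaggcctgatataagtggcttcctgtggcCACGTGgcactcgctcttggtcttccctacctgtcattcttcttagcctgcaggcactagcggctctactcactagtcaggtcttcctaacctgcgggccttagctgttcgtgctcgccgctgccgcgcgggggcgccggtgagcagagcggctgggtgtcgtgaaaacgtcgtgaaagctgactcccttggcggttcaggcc
Phb: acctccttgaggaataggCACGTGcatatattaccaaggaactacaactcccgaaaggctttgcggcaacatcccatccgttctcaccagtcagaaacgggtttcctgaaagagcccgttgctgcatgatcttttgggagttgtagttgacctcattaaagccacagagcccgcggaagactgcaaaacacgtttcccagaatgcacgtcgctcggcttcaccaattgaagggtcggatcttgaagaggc
Lclat1: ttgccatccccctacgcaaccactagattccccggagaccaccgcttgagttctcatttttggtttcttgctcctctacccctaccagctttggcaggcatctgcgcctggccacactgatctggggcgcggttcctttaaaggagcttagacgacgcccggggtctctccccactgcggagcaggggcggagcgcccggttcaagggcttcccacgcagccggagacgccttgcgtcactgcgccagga

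The E-box stands at bases -203 to -198 from the start in Crls1 and at -232 to -227 in Phb, and none of the motifs was found in the window of Lclat1. Among all 9 windows, an E-box was found in 3, that of Prelid1 included, while 6.02% of 32851 RefSeq windows of this length hold one. The ETS motif CCGGAAG was found in 3 windows, those of Prelid1, Stoml2 and Phb2, against 6.91% of all windows. These 3 windows, and those of Pgs1, Ptpmt1 and Taz, hold exons of the gene itself or of a neighbour. They are thus not upstream sequence alone. The NRF1 motif GCGCANGCGC was found in that of Pgs1 (3.74% of all windows) and the ERR motif AAGGTCA in that of Ptpmt1 (4.08%). The ATF4 motif TGATGNAA was in none of the 9 (3.45% of all windows). Both strands were searched, and no matches overlapped. The E-box and the ETS motif each stood before 2 genes that fell and before Prelid1, which did not pass the test. GC content ran from 50.8% in the window of Phb to 69.6% in that of Prelid1, with a median of 52.4% over all windows. Whether GC content bears on the number of matches was not tested. These are matches of letters and not measured binding sites.

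The TMM factors were 0.852 to 0.886 in WT mice and 1.13 to 1.17 in KO mice, so the scaling of the libraries enters every fold change by the same amount. When libraries were scaled by size alone, all genes tested had a median log2 fold change of 0.45, and 10.5% of them were lower and 45.4% higher. On that scale 5 of the 9 cardiolipin genes were lower: Crls1 (-1.20), Phb (-0.48), Taz (-0.41), Phb2 (-0.40) and Ptpmt1 (-0.30). Stoml2 no longer passed the test (-0.14, adjusted p = 0.394), while Pgs1, Lclat1 and Prelid1 were higher, with log2 fold changes of 0.68, 0.75 and 0.51. With quantile normalization and limma, which called 23.7% of all genes lower and 20.9% higher, the same 6 genes were lower as with TMM and none was higher. Crls1 was then at -1.38, Taz at -0.82, Phb at -0.67, Ptpmt1 at -0.57, Phb2 at -0.49 and Stoml2 at -0.45. No gene of the 9 changed sign between these scalings. Relative to the median of all genes, 6 of the 9 lay below it under each of these scalings. Between TMM and library size alone, every gene and the median shift by about the same amount. Only quantile normalization could therefore have changed this count.

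**Figure D2:**
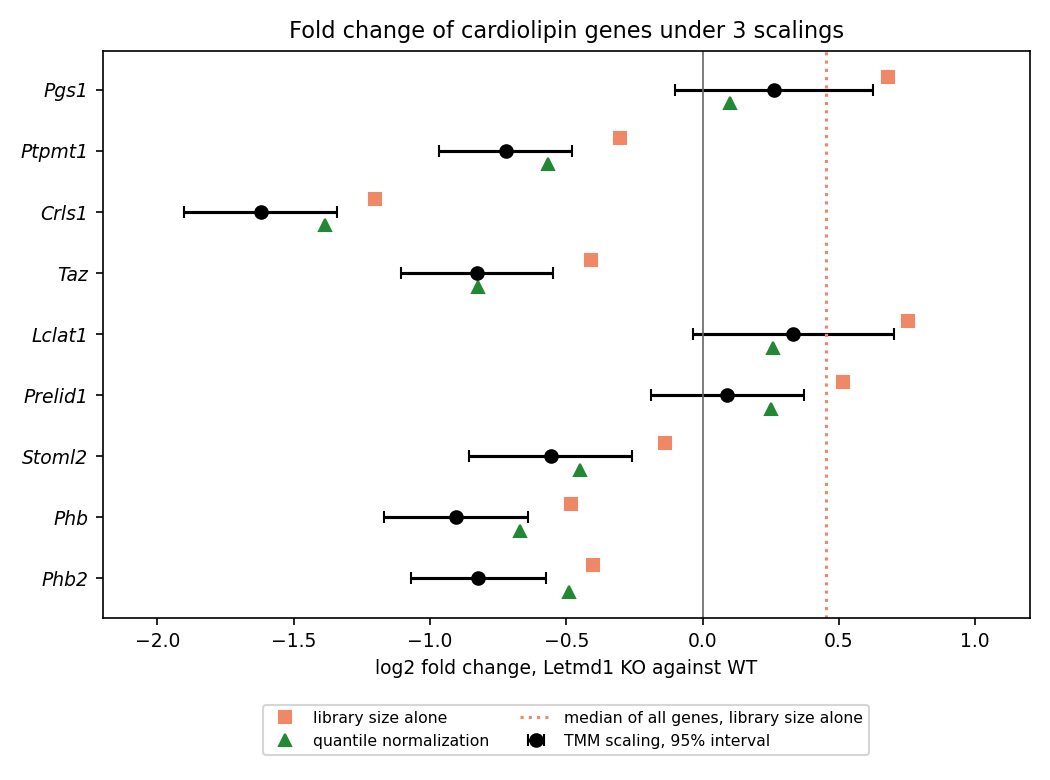
Log2 fold change of each cardiolipin gene in KO against WT BAT under TMM scaling (with its 95% interval), library size alone and quantile normalization, with a line at 0 and a dotted line at the median of all genes under library size alone (0.45). Crls1 has the lowest value under each scaling, and Pgs1, Lclat1 and Prelid1 lie above 0 under each.

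The ratio of the counts of a pair of genes within a mouse does not depend on library scaling. The counts of Lclat1 were 0.499, 0.489 and 0.423 of those of Taz in the WT mice and 1.17, 0.907 and 1.09 in the KO mice. Every KO mouse exceeded every WT mouse, and the log2 difference of 1.15 corresponded to a fold of 2.23, which lay between 1.08 and 1.26 on the log2 scale when any mouse was left out. The exact two-sided permutation test gave p = 0.1, the smallest it allows with 3 mice a group, and 0.2 after adjustment over the 4 pairs compared.

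The ratio of Crls1 to Pgs1, the last and the first enzyme of the route, was 17.7, 17.8 and 15.1 in the WT mice and 3.73, 5.11 and 5.13 in the KO mice. The genotypes did not overlap, and the ratio in KO mice was 0.275 of that in WT mice (exact two-sided permutation p = 0.1, adjusted 0.2). The ratio of Phb to Phb2 was 0.624, 0.530 and 0.577 in the WT mice and 0.550, 0.523 and 0.556 in the KO mice. The ratios of the ring partners overlapped, with a log2 difference of -0.085 beside standard deviations of 0.12 in WT and 0.047 in KO mice (exact two-sided permutation p = 0.4, adjusted 0.4). The ratio of Stoml2 to Phb2 overlapped as well, at 0.149, 0.150 and 0.188 in WT and 0.188, 0.243 and 0.162 in KO mice (exact two-sided permutation p = 0.3, adjusted 0.4).

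**Figure D3:**
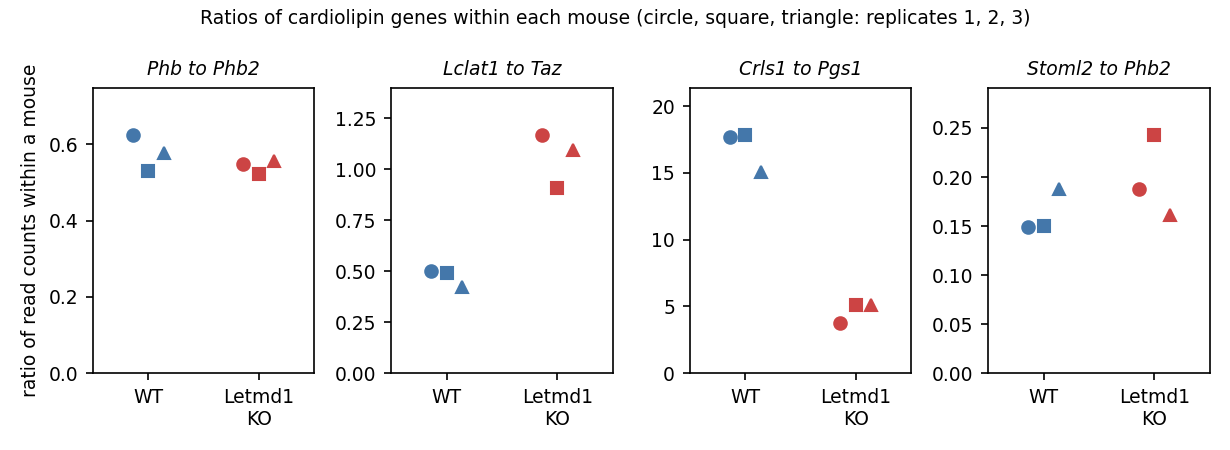
Ratio of read counts of 4 pairs of cardiolipin genes within each mouse, on a linear axis from 0, for 3 WT and 3 Letmd1 KO mice. The genotypes are separate for Lclat1 to Taz and for Crls1 to Pgs1, and overlap for Phb to Phb2 and Stoml2 to Phb2.

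By level, the order in WT BAT was Phb2, Crls1, Phb, Ptpmt1, Prelid1, Stoml2, Taz, Lclat1 and Pgs1, counted per 3′ end and so with no term for length. The ranges of Crls1 and Phb overlapped, as did those of Prelid1 and Stoml2, and the other neighbours were separate. In KO BAT the order was Phb2, Phb, Crls1, Prelid1, Ptpmt1, Stoml2, Lclat1, Taz and Pgs1, with overlap between Crls1 and Prelid1 and between Lclat1 and Taz. The scaffold gene Phb2 was 1.60 times Crls1 in WT BAT and 2.78 times Crls1 in KO BAT. Over the 6 mice, the genes whose log2 CPM ran most like that of Crls1 were Glo1 (Pearson's r = 0.9997), Gm13363 (0.9995) and Serhl (0.999), among 11922 genes with a mean of at least 20 counts. These values describe 6 libraries that share the split by genotype, and 98 genes had an r above 0.99.

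Around the 9 genes, 43 further genes of phospholipid metabolism were listed by role, with earlier results of these data known, and 41 were tested. Of these, 26 fell, 3 rose and 12 did not pass the test, beside 22.3% lower and 23.7% higher among all genes, and their median log2 fold change was -0.55. With library size alone 14 were lower and 9 higher, beside 10.5% lower and 45.4% higher among all genes, with a median of -0.13. With quantile normalization the median was -0.50. Of the 29 calls with TMM, 13 were lost under 1 or both of these scalings, and with library size alone Yme1l1, Ptdss1 and Pcyt1a were just above 0 and below the all-gene median of 0.45.

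**Figure D4:**
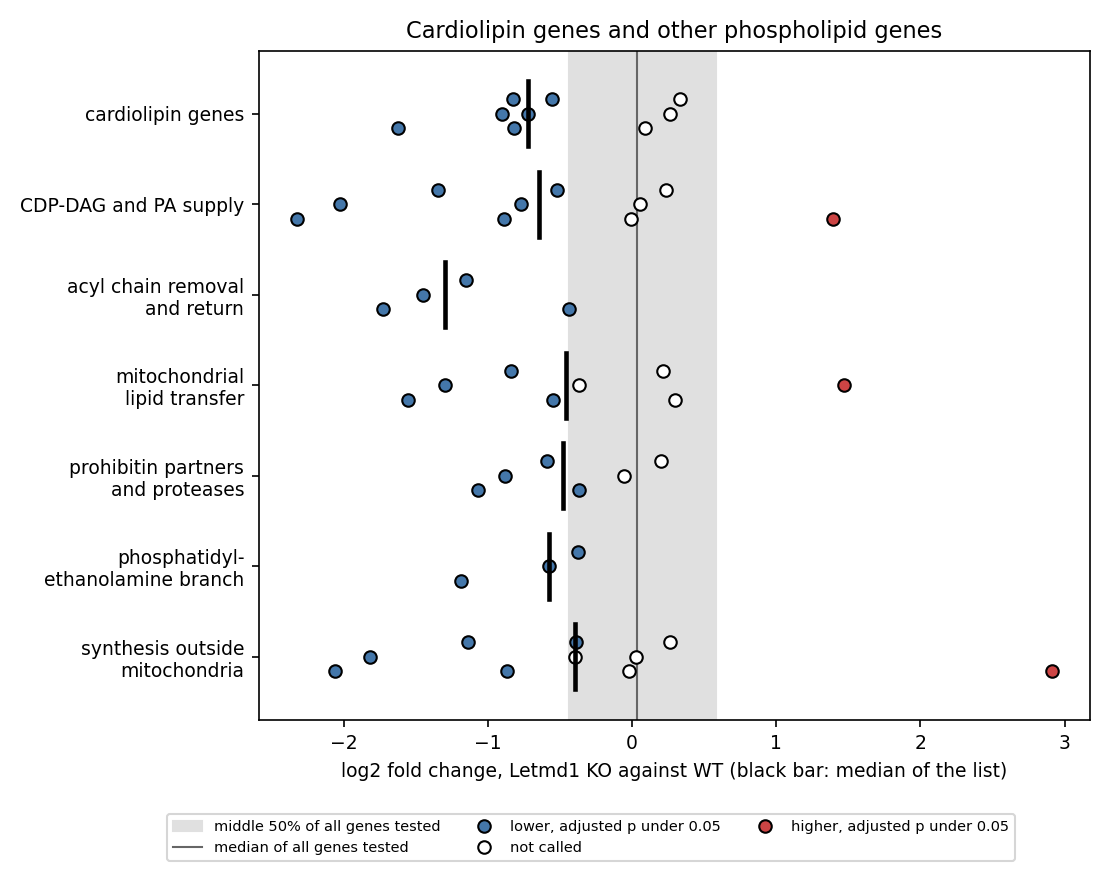
Log2 fold change of each tested gene in KO against WT BAT, for the 9 cardiolipin genes and the 6 lists of other phospholipid genes, with a bar at each list's median, filled points for genes past the threshold, and a grey band for the middle 50% of all genes around their median. The medians of the lists lie between -1.30 and -0.39, and single genes such as Chka lie far above 0.

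Upstream of Pgs1, genes that supply phosphatidic acid and CDP-diacylglycerol were lower for 6 of 10 and higher for 1. Gpam, the mitochondrial glycerol-3-phosphate acyltransferase, fell from 25.9 ± 3.81 to 5.16 ± 0.603 CPM (SD, n = 3 each), a log2 fold change of -2.33. Agpat2, the acyltransferase that makes phosphatidic acid in adipocytes, fell from 2166 ± 522 to 533 ± 67.3 CPM (SD, n = 3 each), and Agpat3 had a log2 fold change of -1.35. Agpat4 rose from 5.14 ± 1.42 to 13.7 ± 2.72 CPM (SD, n = 3 each). Tamm41, the mitochondrial CDP-diacylglycerol synthase that feeds Pgs1 and Crls1, was at 20.3 ± 2.82 and 21.0 ± 3.67 CPM (SD, n = 3 each) and did not pass the test (log2 fold change 0.058, 95% interval -0.34 to 0.46, adjusted p = 0.815). Of the synthases of the endoplasmic reticulum, Cds1 was at -0.77 (adjusted p = 0.00784) and Cds2 was at -0.0088 (adjusted p = 0.962). With library size alone Cds1 no longer passed the test (-0.35, adjusted p = 0.139) and Cds2 was higher (0.41, adjusted p = 0.0219).

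Of the genes that return acyl chains to monolysocardiolipin, Taz fell and Lclat1 did not pass the test. Apart from them, 4 genes were listed for removal or return of cardiolipin acyl chains, Hadhb as partner of Hadha, and all 4 fell. Hadha, the α-subunit of the trifunctional protein of fatty acid oxidation, which also has an acyltransferase activity toward monolysocardiolipin, went from 2380 ± 110 to 718 ± 16.8 CPM (SD, n = 3 each), and its partner Hadhb had a log2 fold change of -1.45. The phospholipase gene Pnpla8 went from 156 ± 17.1 to 70.2 ± 6.90 CPM (SD, n = 3 each), and Pla2g6 had the smallest fall (-0.44, adjusted p = 0.0366). Of these 4, Pla2g6 did not pass the test with library size alone (-0.016, adjusted p = 0.932).

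Of 8 genes of lipid transfer in mitochondria, 4 were lower and 1 higher. Triap1, the partner of Prelid1, fell from 103 ± 12.0 to 70.5 ± 5.76 CPM (SD, n = 3 each), with a log2 fold change of -0.55 (adjusted p = 0.00564), a call lost with library size alone (-0.13, adjusted p = 0.433). Prelid3b, listed in the files as Slmo2 and related to Prelid1, fell to 34.0% of its WT level (log2 fold change -1.56). Nme4, a nucleoside diphosphate kinase that binds and moves cardiolipin, rose from 2.21 ± 0.961 to 6.23 ± 1.46 CPM (SD, n = 3 each), with an adjusted p of 0.0110 that became 0.0524 under quantile normalization. Plscr3, a scramblase of cardiolipin, was at 123% of WT and did not pass the test (adjusted p = 0.145). With library size alone it was higher (0.71, adjusted p = 0.00354). On that scale the lower calls of Stard7 (adjusted p = 0.0813) and Pld6 (adjusted p = 0.0731) were lost as well.

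Of 6 partners and proteases of the prohibitin ring, 4 fell. Dnajc19, a chaperone-like partner of the prohibitins in cardiolipin remodelling, was at -1.07 on the log2 scale (standard error 0.14, adjusted p = 0.000318). Afg3l2 (-0.88) and Spg7 (-0.59), which form the m-AAA protease that the ring surrounds, were lower with TMM. Spg7 did not pass the test with library size alone (-0.17, adjusted p = 0.317), where Afg3l2 did (-0.46, adjusted p = 0.0252). Yme1l1 was at -0.37 with TMM, and it passed neither with library size alone (0.048, adjusted p = 0.740) nor with quantile normalization (-0.23, adjusted p = 0.119). Parl (-0.057) and Oma1 (0.20), proteases of the same membrane, did not pass the test with TMM. With library size alone Parl (0.36, adjusted p = 0.0163) and Oma1 (0.62, adjusted p = 0.00627) were higher.

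All 3 genes of the neighbouring route to mitochondrial phosphatidylethanolamine were lower with TMM: Pisd, the decarboxylase of the inner membrane (-0.57), Ptdss1 (-0.38) and Ptdss2 (-1.19). Ptdss2 passed the test under all 3 scalings, Pisd was lost with library size alone (-0.16, adjusted p = 0.352), and Ptdss1 was lost with library size alone (0.042, adjusted p = 0.786) and with quantile normalization (-0.24, adjusted p = 0.112). Outside mitochondria, 5 of 10 tested genes were lower and 1 higher, with a median of -0.39. With library size alone that median was 0.024, beside 0.45 for all genes. Chpt1, the last enzyme of phosphatidylcholine synthesis, had a log2 fold change of -2.06, and Pcyt2 of the ethanolamine route one of -1.81. The choline kinase genes went in opposite directions. Chkb fell from 174 ± 15.1 to 79.2 ± 3.01 CPM and Chka went from 9.08 ± 4.82 up to 69.1 ± 17.2 CPM (SD, n = 3 each), the largest rise of the 41 genes (log2 fold change 2.91, adjusted p = 0.000253). Pcyt1b had 0 to 7 counts per mouse and Etnk2 had 0 or 1, and neither was tested.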

How the data were processed

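QuantSeq 3′ libraries were made from 500 ng of total RNA of BAT of 3 WT and 3 Letmd1 KO mice. Single-end reads of 75 bases were mapped by the authors to mm10 with Bowtie2, unique and multiple alignments were summed per gene with Bedtools, and whole-number counts were deposited without the quantile normalization named in their methods. Versions, gene annotation and use of strand are not given in the sources used here. The labels name single mice as samples. The 9 genes and all lists were chosen with earlier results of these data known.

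Counts were tested in R 4.3.3 with edgeR 4.0.16 (quasi-likelihood test, TMM, filterByExpr defaults of 10 counts and 15 in total, Benjamini-Hochberg adjustment over 12995 genes, threshold 0.05). Fold changes are KO over WT on the log2 scale, the standard error is the fold change divided by the square root of F, and log2 CPM used a prior count of 2. Log2 ratios of gene pairs used the same log2 CPM, and quoted ratios are of raw counts. A floor of 3 counts was 0.176 to 0.397 CPM, for counting error only. No mouse repeated another within a genotype (chi-square of the counts 11.5 to 34.0 per degree of freedom). The steps were tested on simulated counts. Alternatives were library size alone, relative log expression factors, quantile normalization with limma 3.58.1, DESeq2 1.42.0, other filters, the replicate number as a block, and leaving out mice. Genes named are the 9, genes of the other phospholipid lists (including Pcyt1b and Etnk2, named as not tested), the 3 genes most correlated with Crls1, and Letmd1. Mxd3, Kbtbd4, Gm14104 and the markers given by name were named after their values or positions were seen. Positions are from GENCODE M21, and promoter windows from RefSeq, where all 9 genes were matched. The last 500 bases of the transcripts were compared by blastn 2.17.0 with all transcripts. At 90% identity over 200 bases, Phb matched 7 pseudogenes, Prelid1 3 and Stoml2 1, and Ptpmt1 matched the overlapping gene Kbtbd4.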

Additional observations from a re-analysis of the deposited data

How the results depend on the processing

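Scaling by library size alone changed the most: 3 of the 9 genes became higher (none with TMM), and of the other phospholipid genes 14 were lower (26 with TMM) and 9 higher (3 with TMM). Of all genes tested, 10.5% were lower and 45.4% higher with library size alone. The share of higher genes among all called was 81.2% on that scale, 51.6% with TMM and 46.8% with quantile normalization. Of 126 refitted values of single cardiolipin genes, 121 kept their direction and side of the threshold, 3 came to pass it, 2 no longer passed it and 0 reversed. Relative log expression factors, DESeq2, no filter, a minimum mean of 50 counts and leaving out any 1 mouse each gave 6 genes lower and 0 higher. Leaving out 1 mouse gave 20 to 26 other phospholipid genes lower and 2 to 3 higher. Without WT replicate 2 and KO replicate 3, 3889 genes were called over all genes, against 5978 with all 6 mice, from a fit with fewer mice. With the replicate number as a block, 6 of the 9 genes were lower and 0 higher, 26 and 3 of the other phospholipid genes were lower and higher, and 5599 genes were called in all. Same-numbered mice did not deviate together (r = 0.069, -0.11 and -0.087), so no pairing by number was seen. With 3 mice a group, these values cannot exclude a pairing. Pgs1 and Lclat1 rested on 110 to 481 counts per mouse, and whether depth limited their calls was not tested. The exact tests of ratios cannot go below p = 0.1.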
